A study of Mus musculus with 4 samples.

Results

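A set of 31 genes that mark the visceral endoderm of the yolk sac, many of which the liver also uses to make secreted proteins, was examined in whole uteri of pregnant mice. The genes were taken by name and found by symbol among the 55421 genes in the deposited counts. The genes were chosen by their known use in the visceral endoderm together with the counts of Afp and Apoa4 in these libraries, which were known when the list was proposed, and the question asked of it was which genes are high together with Afp and in which libraries. The levels by library are therefore given as a description, without a test.

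All mice were pregnant at E18.5, with C57BL/6J as WT (2 mice) and the strain B6.K1 as Qa-2- (2 mice), and 1 poly(A) library was made per mouse from tissue powder. B6.K1 (B6.Cg-H2b3/FlaCmwJ) is congenic for part of the H2 region and lacks the genes for Qa-2, a nonclassical MHC class I molecule. The WT mice came from another strain and supplier, so Qa-2 and other differences between the strains cannot be told apart. The study's methods on tissue collection and cell suspensions describe dissecting the fetuses and fetal placenta away from the uterus. The methods on RNA do not say whether this was done for the frozen uteri, and neither passage mentions the yolk sac. Values of the 4 libraries are given throughout in the order WT replicate 1, WT replicate 2, Qa-2- replicate 1, Qa-2- replicate 2. Total counts lay between 33286390 and 41041299 per library. H2-Q6 and H2-Q7, which encode Qa-2, had between 1192 and 6318 counts in the WT libraries and between 2 and 4 counts in the Qa-2- libraries. Muscle and stroma genes of the uterus were present in every library, with Myh11 between 80707 and 260322 counts.

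The visceral endoderm is the outer, absorptive layer of the mouse yolk sac. It takes up maternal proteins through the receptors cubilin and megalin, and it secretes carrier proteins such as alpha-fetoprotein together with lipoproteins for the fetus. Much of this programme is shared with the fetal liver, and in both tissues it depends on transcription factors such as HNF4A and GATA4. In bulk tissue, a lower number of cells of one type and less RNA per cell cannot be told apart.

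Several of the genes lie near each other. On GRCm38, Alb and Afp lie on chromosome 5 between 90460897 and 90508907 with 14134 bases between them. Fgg, Fga and Fgb, the genes of the 3 fibrinogen chains, lie on chromosome 3 between 83007724 and 83049863, and Apoa1 and Apoa4 lie on chromosome 9 between 46228580 and 46243459. Apoc2 and Apoc1 lie on chromosome 7 with 11539 bases between them, which hold Apoc4. The listed members of each of the first 3 clusters were highest in the same library, Qa-2- replicate 1. Apoc3, which is not on the list, lies between Apoa1 and Apoa4 and had 0, 0, 2 and 0 counts. The 250 bases before the start of Afp (chr5:90490464-90490713, plus strand), Alb (chr5:90460620-90460869, plus strand) and Fgb (chr3:83049864-83050113, minus strand), from RefSeq on GRCm38.p6, are shown because these genes of 2 clusters share the letters GTTAAT, the core of a site of HNF1 factors. They are written 5′ to 3′ on the gene's strand. Capitals mark GTTAAT or, on the opposite strand, ATTAAC, and in Alb also CAAAGT, the core of a site of HNF4 factors.
Afp: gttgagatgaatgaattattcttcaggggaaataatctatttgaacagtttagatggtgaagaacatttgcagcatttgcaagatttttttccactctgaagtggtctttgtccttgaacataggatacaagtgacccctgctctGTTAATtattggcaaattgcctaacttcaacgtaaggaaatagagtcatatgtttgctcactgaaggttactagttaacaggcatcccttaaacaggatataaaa
Alb: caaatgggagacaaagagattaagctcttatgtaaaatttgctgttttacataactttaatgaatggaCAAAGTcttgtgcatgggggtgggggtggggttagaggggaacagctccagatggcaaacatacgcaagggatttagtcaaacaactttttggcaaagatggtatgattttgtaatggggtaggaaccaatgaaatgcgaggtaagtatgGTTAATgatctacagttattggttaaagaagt
Fgb: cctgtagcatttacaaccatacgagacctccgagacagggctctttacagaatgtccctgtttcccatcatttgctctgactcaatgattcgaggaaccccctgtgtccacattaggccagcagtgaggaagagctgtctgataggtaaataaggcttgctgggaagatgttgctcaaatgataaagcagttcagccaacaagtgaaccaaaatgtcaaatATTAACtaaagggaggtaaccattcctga
Promoters of 27 of the 31 genes were in the RefSeq table, all but Ttr, Trf, Apoc1 and Gata4. GTTAAT was present on either strand in 5 of the 27 (Afp, Alb, Apoc2, Fga and Fgb) against 6.43% of all 32851 promoters. CAAAGT was present in 7 of the 27 (Alb, Ahsg, Apoa4, Apoc2, Lrp2, Dab2 and Entpd2) against 12.6% of all promoters, and AGATAA, the core of a GATA site, in 2 of the 27 (Spp2 and Hnf4a) against 9.99%. No match of one motif overlapped a match of another in these windows. The start in RefSeq lay more than 250 bases from the start in the deposited annotation for Rhox5, Apoh, Ahsg, Mttp and Pdzk1. It lay 249 bases away for Apom, 148 for Apoa4, 77 for Fga and 63 for Cubn, and at most 50 bases away for the rest.

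Of the 31 genes, 28 had at least 10 counts in the library where they were highest. In 17 of these 28 (54.8% of all 31), CPM were at least 2-fold higher in Qa-2- replicate 1 than in every other library. Of all 18789 genes with at least 10 counts, 291 (1.55%) had this pattern, so that the 17 genes made up 5.84% of those 291. Since the list was chosen with Afp in view, these shares carry no test. For comparison, 2.42% of all genes were at least 2-fold higher in WT replicate 1 than in every other library. For WT replicate 2 this share was 2.72%, and for Qa-2- replicate 2 it was 2.63%. The 17 genes together had 12.6, 62.4, 627 and 37.9 CPM. They took 0.0637% of the counts in Qa-2- replicate 1 and between 0.00123% and 0.00597% in the others. Without Afp the sums were 8.64, 28.8, 254 and 18.2 CPM. That Qa-2- replicate 1 had the largest sum follows from how the 17 genes were picked, and WT replicate 2 was above Qa-2- replicate 2.

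**Figure D1:**
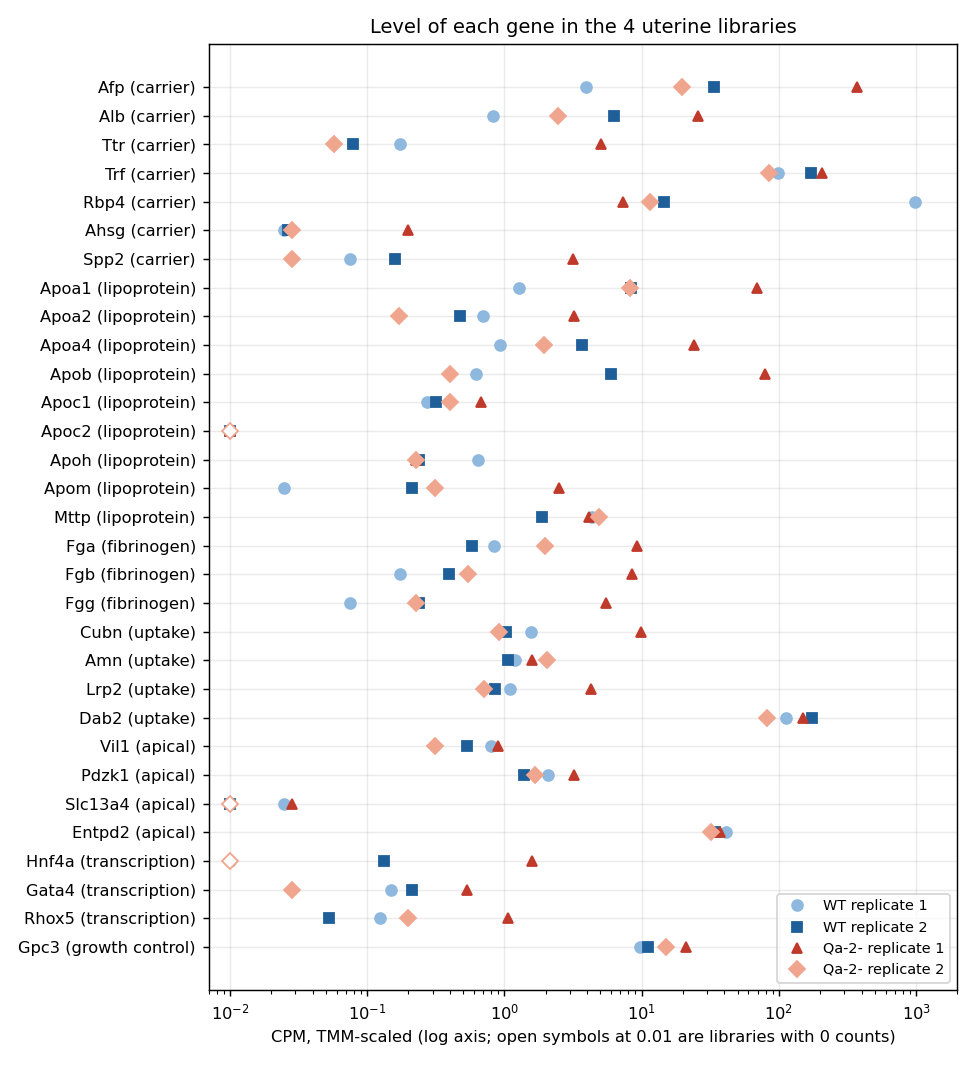
Level of each of the 31 genes in CPM on TMM-scaled library sizes (log axis), 1 symbol per library and 1 library per mouse, with the role of each gene in brackets and open symbols for libraries with 0 counts. The red triangles of Qa-2- replicate 1 stand to the right of all other symbols for most genes, while Rbp4 reached 977 CPM in WT replicate 1 alone.

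Among the carrier proteins, 4 of 7 genes had this pattern. Afp, the fetal counterpart of albumin, had 158, 1268, 13253 and 689 counts. In CPM these were 3.94, 33.6, 373 and 19.7, so that Qa-2- replicate 1 exceeded the next library 11.1-fold (95% interval 10.5 to 11.8, for counting error only, as for all intervals here). The genotypes overlapped, since WT replicate 2 lay above Qa-2- replicate 2. Alb, which encodes albumin, had 33, 237, 920 and 86 counts, and 0.822, 6.28, 25.9 and 2.46 CPM. Qa-2- replicate 1 exceeded the next library 4.13-fold (3.57 to 4.78), and WT replicate 2 was again second. Ttr, the thyroxine and retinol-binding protein carrier transthyretin, had 7, 3, 181 and 2 counts, an excess of 29.2-fold (13.9 to 73.8), the largest among the genes with 10 counts. Spp2, a secreted phosphoprotein, had 3, 6, 112 and 1 counts, an excess of 19.8-fold. For Ttr and Spp2 the other 3 libraries lay near the floor of 3 counts.

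The other 3 carriers did not have this pattern. Trf, the iron carrier transferrin, had 3939, 6510, 7293 and 2975 counts, which were 98.1, 173, 205 and 85.1 CPM. Qa-2- replicate 1 was highest but exceeded WT replicate 2 only 1.19-fold (1.15 to 1.23). Ahsg, which encodes the plasma protein fetuin A, had 7 counts in Qa-2- replicate 1 and 1 in each of the others. Its excess of 6.90-fold (0.886 to 311) did not count because it was under the minimum of 10 counts. Rbp4, the retinol carrier of plasma, had 39221 counts in WT replicate 1 against 545, 259 and 402 in the others. It was the one carrier that was lowest in Qa-2- replicate 1.

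Of the 9 genes for lipoproteins and their assembly, 5 had the pattern. Apob, the structural protein of lipoprotein particles, had 25, 225, 2820 and 14 counts. Its CPM were 0.623, 5.97, 79.5 and 0.400, and Qa-2- replicate 1 exceeded the next library 13.3-fold (11.6 to 15.3). The lowest library was the other Qa-2- library. Apoa1, the main protein of high-density lipoprotein, had 51, 318, 2462 and 288 counts, an excess of 8.23-fold (7.32 to 9.28), with 1.27, 8.43, 69.4 and 8.23 CPM. Apoa4, an apolipoprotein of gut and yolk sac lipoproteins, had 37, 139, 857 and 68 counts, an excess of 6.55-fold (5.47 to 7.90). Both Apoa1 and Apoa4 followed the order of libraries of Afp.

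Apoa2, a second protein of high-density lipoprotein, had 28, 18, 115 and 6 counts, an excess of 4.65-fold. Apom, which carries sphingosine-1-phosphate, had 1, 8, 88 and 11 counts, an excess of 7.88-fold. The remaining lipoprotein genes did not have the pattern. Mttp, which loads lipid onto apolipoprotein B, had 176, 71, 147 and 170 counts and was highest in Qa-2- replicate 2. Apoc1, an inhibitor of lipoprotein uptake, had 11, 12, 24 and 14 counts, and its excess of 1.69-fold (0.839 to 3.53) lay just under the 2-fold limit. Apoh, a phospholipid-binding plasma protein, had 26 counts in WT replicate 1 and 8 or 9 in the others. Apoc2, the activator of lipoprotein lipase, had 0 counts in all 4 libraries, but 79.5% of its exon bases are shared with Gm44805 and read pairs in shared bases were not counted, so its level is uncertain.

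All 3 fibrinogen chains had the pattern. Fga had 34, 22, 328 and 69 counts, which were 0.847, 0.583, 9.24 and 1.97 CPM. Qa-2- replicate 1 exceeded the next library 4.68-fold (3.60 to 6.17), and both Qa-2- libraries lay above both WT libraries. Fgb had 7, 15, 303 and 19 counts, an excess of 15.7-fold (9.89 to 26.5), and Fgg had 3, 9, 196 and 8 counts, an excess of 23.1-fold (11.9 to 51.4). The 3 chains assemble in equal numbers, and per length their levels in Qa-2- replicate 1 were 9.79, 7.15 and 8.42 TPM for Fga, Fgb and Fgg. In Qa-2- replicate 2 they were 2.005, 0.436 and 0.334 TPM.

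Of the 4 genes for protein uptake, the 2 large receptors had the pattern. Cubn, which encodes cubilin, had 63, 39, 352 and 32 counts. The excess was 6.32-fold (4.82 to 8.40). Lrp2, which encodes megalin, had 44, 32, 152 and 25 counts, an excess of 3.91-fold (2.78 to 5.60). Unlike Afp, both receptors were lowest in Qa-2- replicate 2. Amn, the membrane anchor of cubilin, had 48, 40, 56 and 72 counts and was highest in Qa-2- replicate 2. Dab2, an endocytic adaptor of megalin, had 4512, 6618, 5351 and 2851 counts and was highest in WT replicate 2.

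None of the 4 genes of the apical membrane had the pattern. Vil1, which bundles actin in microvilli, had 32, 20, 32 and 11 counts. Pdzk1, a scaffold of membrane transporters, had 83, 52, 114 and 58 counts, and its excess of 1.55-fold (1.16 to 2.09) lay just outside the limit. Entpd2, an enzyme that splits extracellular nucleotides, had 1649, 1281, 1327 and 1115 counts and was highest in WT replicate 1, with 28.8% of its exon bases shared with Npdc1. Slc13a4, a sulfate transporter, had at most 1 count in any library.

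The 3 transcription genes had the pattern at very low counts. Hnf4a, a nuclear receptor that drives hepatic and visceral endoderm genes, had 0, 5, 56 and 0 counts. Rhox5, an X-linked homeobox gene of extraembryonic tissue and the gonads, had 5, 2, 38 and 7 counts, an excess of 5.35-fold (2.36 to 14.2). Gata4, a zinc finger factor of endoderm and heart, had 6, 8, 19 and 1 counts, and its excess of 2.52-fold (1.06 to 6.66) lay just inside the limit, followed upward by that of Lrp2. The growth regulator Gpc3, a cell surface proteoglycan, had 390, 417, 745 and 528 counts, with an excess of 1.39-fold (1.24 to 1.56) and both Qa-2- libraries above both WT libraries.

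**Figure D2:**
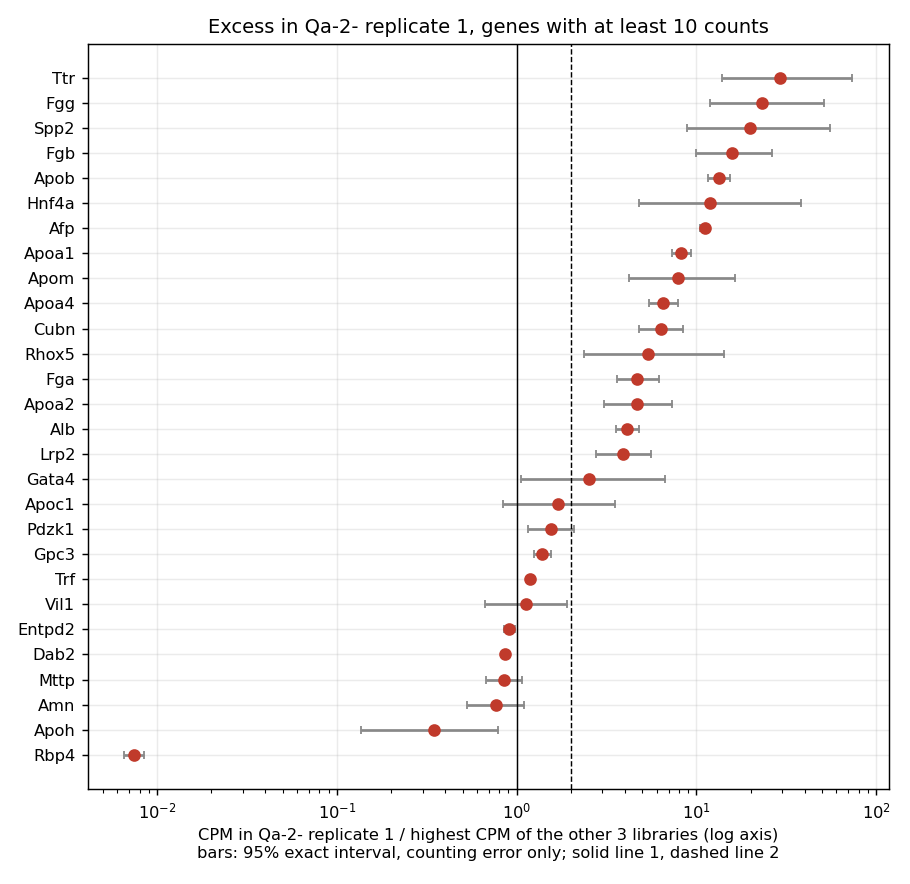
CPM in Qa-2- replicate 1 divided by the highest CPM of the other 3 libraries (log axis) for the 28 genes with at least 10 counts, with 95% exact intervals that cover counting error only, a solid line at 1 and a dashed line at the 2-fold limit. Ttr stands highest at 29.2, Gata4 at 2.52 is the last gene past the limit, and Rbp4 lies far to the left.

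Compared per length, which allows levels of different genes to be set side by side, Afp stood first among the 17 genes in Qa-2- replicate 1 with 354 TPM, followed by Apoa1 with 179 TPM, Apoa4 with 42.4 TPM and Alb with 35.3 TPM. Apoa2 had 19.2 TPM and Apob 18.2 TPM there, although Apob had more counts than Apoa1. Ttr had 13.7 TPM and Spp2 10.1 TPM. In the other 3 libraries Afp had 3.19, 29.4 and 17.9 TPM. Of the genes outside this pattern, Trf had a mean of 127 TPM over the 4 libraries, Dab2 of 52.9 TPM and Entpd2 of 50.4 TPM. Rbp4 had 1987 TPM in WT replicate 1 and 31.7, 17.3 and 26.2 TPM in the others, so that its level rested on 1 library.

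In the 28 genes with at least 10 counts, 22 were highest in Qa-2- replicate 1, the 17 with the pattern among them, against 21% of all genes with at least 10 counts. The full order of Afp, in which WT replicate 2 came after Qa-2- replicate 1 and WT replicate 1 was last, was found in 5 of the 28, namely Afp itself, Alb, Apoa1, Apoa4 and Fgg, against 4.4% of all genes. Hnf4a had 0 counts in the last 2 libraries of that order, so its order was tied. Apom, Fga, Fgb and Rhox5 had Qa-2- replicate 2 in second place, and Spp2, Apob and Gata4 had WT replicate 2 in second place and Qa-2- replicate 2 in last. Ttr, Apoa2, Cubn and Lrp2 had WT replicate 1 in second place and Qa-2- replicate 2 in last.

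Likeness to Afp was measured as the root mean square difference of centred log2 CPM over the 4 libraries, among 15281 genes with at least 1 CPM in a library. Of the 10 genes nearest to Afp, 7 were on the list. Apoa1 was nearest with a difference of 0.44 and Alb second with 0.64, followed among the listed genes by Fgg, Apoa4, Apom, Fgb and Hnf4a at up to 0.84. The other 3 were Nxf7, of the family of nuclear RNA export factors, with 0, 4, 57 and 2 counts, the immunoglobulin heavy chain variable segment Ighv9-4 with 0, 3, 125 and 3 counts, and the unconventional myosin gene Myo15b with 1, 9, 86 and 18 counts. Spp2 ranked 20th and Apob 30th. At the other end, Rbp4 ranked 15271. With 4 libraries and low counts in 3 of them, likeness is a description of these libraries.

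The counts of the listed genes per 100 Afp counts in the same library show where their proportions to Afp were alike, and 9 genes were chosen for this after their values were seen. For Apoa1 there were 32.3 (23.1 to 44.5), 25.1 (22.1 to 28.4), 18.6 (17.8 to 19.4) and 41.8 (36.3 to 48.03) counts per 100 Afp counts. This span was small beside that of Afp itself. Apob had 15.8, 17.7 and 21.3 counts per 100 Afp counts in the first 3 libraries but 2.03 (1.11 to 3.43) in Qa-2- replicate 2, whose interval lay under all others. Alb had 20.9 and 18.7 counts per 100 Afp counts in WT replicates 1 and 2, against 6.94 (6.49 to 7.42) in Qa-2- replicate 1 and 12.5 (9.86 to 15.6) in Qa-2- replicate 2. The proportion of Alb to Afp was therefore lowest in the library with the most of both.

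For Fgg and Apom the 4 intervals overlapped, at 0.710 to 1.90 and 0.631 to 1.60 counts per 100 Afp counts. Cubn had 39.9 counts per 100 Afp counts in WT replicate 1 against 3.08, 2.66 and 4.64 in the others. Fga had 21.5, 1.74, 2.47 and 10.01 counts per 100 Afp counts. Cubn in WT replicate 1, and Fga in both libraries with the least Afp, thus did not fall in proportion to Afp.

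**Figure D3:**
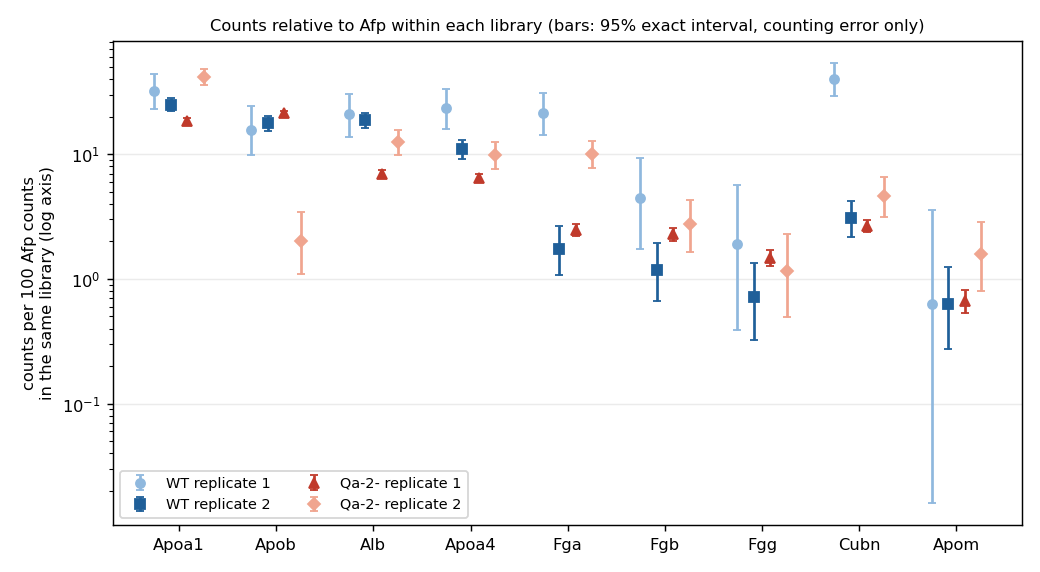
Counts of 9 genes per 100 Afp counts in each library (log axis), with 95% exact intervals that cover counting error only. Apob stands apart in Qa-2- replicate 2 at 2.03, and Cubn in WT replicate 1 at 39.9, while the 4 intervals of Fgg and of Apom overlap.

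Between the genotypes, none of the listed genes that could be tested passed the threshold by edgeR, while DESeq2 called Fga. Of the 31 genes, 16 reached 1 CPM in 2 or more libraries and were tested with edgeR's quasi-likelihood test and Benjamini-Hochberg adjustment over all 14492 genes kept, as Qa-2- over WT. Of the 15 that were not tested, 9 were genes with the pattern of Afp (Ttr, Spp2, Apoa2, Apom, Fgb, Fgg, Hnf4a, Gata4 and Rhox5), which reached 1 CPM in 1 library at most, and the others were Ahsg, Apoc1, Apoc2, Apoh, Vil1 and Slc13a4. With edgeR, 0 of the 16 had an adjusted p under 0.05, as had 0 of all genes kept (0% in each direction). H2-Q6 and H2-Q7, with log2 fold changes between -10.1 and -9.59, were not called either (lowest adjusted p 0.228 by edgeR). At an unadjusted p under 0.05, Fga and Gpc3 were higher in Qa-2- uteri (7.09% of all genes kept) and Rbp4 was higher in WT uteri (8.09%). DESeq2, which called 2.04% of all genes kept higher in Qa-2- and 2.79% higher in WT, called Fga alone among the 16 (adjusted p = 0.00448). Fga reached 1 CPM in the Qa-2- libraries alone and so passed the filter only through the group where it was high, and its p-values are given as a description.

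As a description, the median log2 fold change of the 16 genes was 1.08 against -0.01 over all genes kept, and 13 of the 16 were above 0 against 48.9% of all genes kept. Of the 16, 8 were genes with the pattern of Afp, Afp and Apoa4 had been known when the list was made, and Fga passed the filter as just described, so the median and the count support nothing about the genotypes. Without Qa-2- replicate 1, 12 genes passed the filter and their median was -0.14, with 5 above 0 and 7 below. Among the 16, Fga, Amn and Gpc3 did not overlap between the genotypes with both Qa-2- libraries higher, against 24.5% of all genes kept, and Rbp4 did not overlap with both WT libraries higher, against 25.4%.

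Fga had 0.715 ± 0.187 CPM in WT uteri (SD, n = 2). In Qa-2- uteri it had 5.61 ± 5.14 CPM (SD, n = 2). Its log2 fold change was 2.96 (SE 0.82) with an adjusted p of 0.273 by edgeR. Over the other tools, scalings, filters and blocks its adjusted p ran from 0.00448 to 0.455. Gpc3 had 10.4 ± 0.947 CPM in WT uteri against 18.04 ± 4.17 CPM without Qa-2 (SD, n = 2 each), with a log2 fold change of 0.80 (SE 0.24) and an adjusted p of 0.281 by edgeR. For Gpc3 the difference was 0.54 without Qa-2- replicate 1.

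Afp had a mean of 18.8 ± 20.99 CPM in WT uteri against 197 ± 250.1 CPM in those of Qa-2- mice (SD, n = 2 each), so that the SD exceeded the mean in both groups. The log2 fold change was 3.39 (SE 1.60) with an adjusted p of 0.383 by edgeR, and it was 0.07 without Qa-2- replicate 1. Apob had a log2 fold change of 3.60 (SE 2.10), Apoa1 of 3.0 (SE 1.27), Apoa4 of 2.50 (SE 1.26), Cubn of 2.05 (SE 1.07), Alb of 2.0 (SE 1.32) and Lrp2 of 1.36 (SE 0.85), with adjusted p between 0.349 and 0.504 by edgeR. Without Qa-2- replicate 1 the values of Alb and Apoa4 turned to -0.53 and -0.24, and that of Apoa1 was 0.77. The remaining genes tested lay closer to 0, with 0.69 for Amn, 0.52 for Mttp, 0.50 for Pdzk1, 0.10 for Trf, -0.12 for Entpd2 and -0.31 for Dab2. Their SE lay between 0.18 and 0.49.

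**Figure D4:**
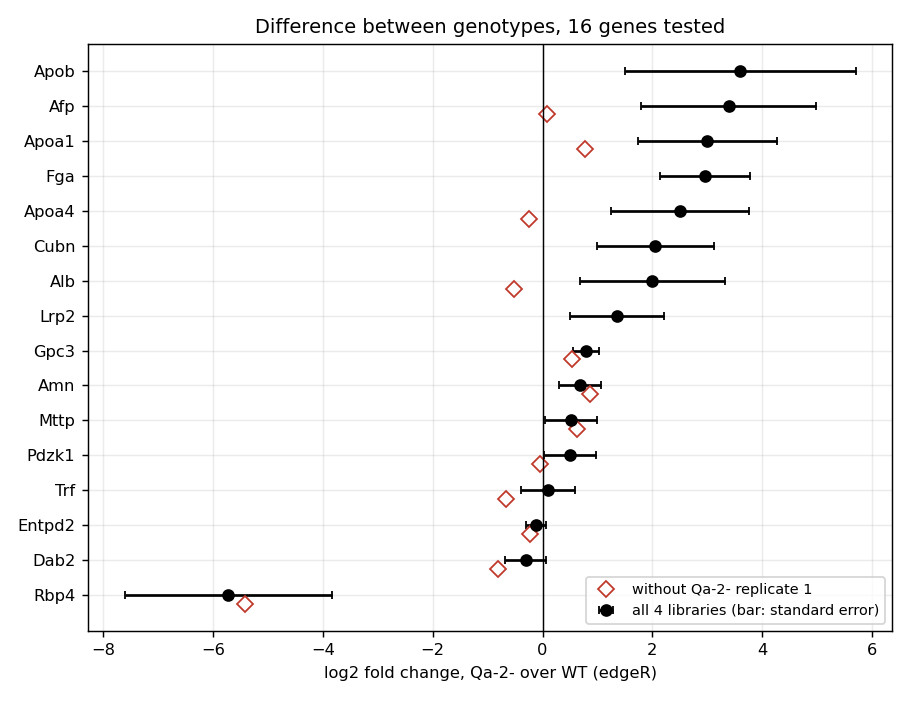
Log2 fold change of the 16 genes tested, Qa-2- over WT, with all 4 libraries (filled circles, bars are the standard error, n = 2 libraries each) and without Qa-2- replicate 1 (open diamonds, absent for genes that then failed the filter). Afp moves from 3.39 to 0.07 and Alb from 2.0 to -0.53, while Rbp4 moves little from -5.72.

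Rbp4 showed the largest difference of the list in the other direction. Its 977 CPM in WT replicate 1 stood against 14.4, 7.30 and 11.5 CPM in the others, and the log2 fold change was -5.72 (SE 1.89) with an adjusted p of 0.296 by edgeR. Without WT replicate 1 it was -0.59, and without WT replicate 2, where the remaining WT library is assumed to vary like the others, it was -6.70 with an adjusted p of 0.0137 by edgeR. Genes near Rbp4 in likeness, looked at after its values were seen, included the secretoglobin gene Scgb1a1 with 1943, 28, 7 and 17 counts, the scavenger receptor gene Olr1 with 14566, 215, 176 and 352 counts, and the granzyme genes Gzmc with 6001, 93, 36 and 169 counts and Gzmf with 20481, 168, 75 and 513 counts. Gatm, which encodes an enzyme of creatine synthesis, had 20237, 659, 352 and 1031 counts. Of 6 adipocyte genes, the 5 with at least 10 counts were highest in WT replicate 1, against 23.1% of all genes with at least 10 counts, among them Adipoq with 126, 10, 6 and 0 counts, and the 6 had 68.6, 20.4, 7.47 and 3.80 CPM in sum. Of 6 mesothelium genes, 5 were likewise highest in WT replicate 1 and 5 were higher in WT uteri at an unadjusted p under 0.05 by edgeR, against 8.09% of all genes kept, with a median log2 fold change of -3.33 over the 6. Their sum was 131, 139, 104 and 58.3 CPM, highest in WT replicate 2. The part of these cells in the level of Rbp4 was not tested.

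The list was checked against markers of the tissues that could hold such transcripts. The 13 markers used for visceral yolk sac endoderm are all on the list, and 10 of them are among the 17 genes counted above, so they give no separate check of the label. The other 3 were Amn, Entpd2 and Slc13a4. Amn and Entpd2 were present in every library, at 40 counts or more, without following the other markers. Of 16 genes of hepatocytes, 9 were at 0 in all 4 libraries, among them Hamp, Cyp3a11, Serpina3k and Otc. Cps1, the first enzyme of the urea cycle, had 2, 0, 2 and 1 counts, and the 16 genes had 36.0, 24.8, 19.1 and 21.5 CPM in sum. Only 5 of the 16 reached 10 counts in a library, and none of these 5 was at least 2-fold higher in Qa-2- replicate 1. Tdo2, an enzyme of tryptophan breakdown, had 943, 235, 275 and 190 counts and was highest in WT replicate 1.

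Of 19 trophoblast genes, 10 had at least 10 counts in a library. Of these 10, 7 were highest in WT replicate 2, against 27.7% of all genes with at least 10 counts. In Qa-2- replicate 1, 2 were highest, against 21%. None of the 10 was at least 2-fold higher in Qa-2- replicate 1. The sum of all 19 was 2.24, 40.1, 9.16 and 1.89 CPM. The 2 libraries with the most Afp thus also had the most of these genes, in the opposite order. Tpbpa, a gene of the spongiotrophoblast, had 4, 271, 115 and 5 counts. The prolactin family gene Prl2a1 had 0, 68, 100 and 3 counts, while Psg23, a pregnancy-specific glycoprotein gene, had 0, 395, 2 and 0 counts. Of the embryonic globin genes, Hbb-y and Hbb-bh1 had 0 counts in every library and Hba-x had 1 count in all. Of 10 genes of basement membrane and parietal endoderm, 8 were highest in WT replicate 2, against 27.7% of all genes with at least 10 counts. Of 7 genes of the uterine epithelium, 4 were highest in Qa-2- replicate 2, against 28.1% of all genes with at least 10 counts. The other 3 were highest in Qa-2- replicate 1, against 21%. The 7 had 3477, 1894, 3364 and 7831 CPM in sum, which did not follow the Afp order either. The part of trophoblast or other fetal tissue in the levels of the listed genes was not tested.

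None of the further genes of the same pathways that were tested had an adjusted p under 0.05 by edgeR. The same held for all 14492 genes kept. Of 24 other plasma protein genes, 19 had at least 10 counts in a library. Of these 19, 7 were highest in Qa-2- replicate 1, against 21% of all genes with at least 10 counts, and 4 were at least 2-fold higher there than in every other library, against 1.55%. They were the prothrombin gene F2 with 5, 9, 102 and 3 counts, the vitamin D-binding protein gene Gc with 1, 0, 29 and 3 counts, and the protease inhibitor genes Serpina1a with 2, 0, 13 and 0 counts and Serpina1b with 14, 20, 56 and 18 counts. Hp, which encodes the haemoglobin scavenger haptoglobin, was highest in Qa-2- replicate 2, with 2485, 1395, 1913 and 5962 counts. Of 15 other genes of lipoprotein assembly, 9 had at least 10 counts in a library. None of these 9 was at least 2-fold higher in Qa-2- replicate 1 than in every other library. Apoe, which many cell types make, had 42198, 44436, 17304 and 23809 counts, so that it was lowest in the library where Apoa1 and Apob were highest.

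Of 12 other transcription genes of endoderm, 8 had at least 10 counts in a library. None of these 8 was at least 2-fold higher in Qa-2- replicate 1 than in every other library. Gata6, a relative of Gata4, had 704, 833, 916 and 442 counts. Of 17 other genes of apical uptake, none was at least 2-fold higher in Qa-2- replicate 1, and of the 16 tested, 3 were higher in Qa-2- uteri (7.09% of all genes kept) and 2 in WT uteri (8.09%) at an unadjusted p under 0.05 by edgeR. Stra6, the receptor for retinol-binding protein, had 392, 659, 1123 and 715 counts, and was highest in the library where Rbp4 was lowest.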

How the data were processed

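Whole uteri of 2 WT and 2 Qa-2- mice at E18.5 were measured by RNA sequencing, with 1 library per mouse. The deposited values are raw counts of read pairs per gene. Per the file headers, the authors counted them with featureCounts 2.0.0 on a GRCm38 annotation, on the reverse strand, with both ends mapped, leaving out multimapping pairs and pairs shared by genes. The submitters' processing notes name STAR 2.7.3a and GRCm38.p6. Symbols came from GENCODE M21, which held 55240 of the 55421 identifiers, and 181 had no symbol.

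The members and the other gene lists were chosen with earlier results of these data known. CPM used TMM-scaled library sizes (factors 0.957 to 1.05), and TPM used the gene lengths in the files. Genes that reached 1 CPM in 2 or more libraries were compared with edgeR 4.0.16 in R 4.3.3 (quasi-likelihood test, Benjamini-Hochberg adjustment, Qa-2- over WT). The standard error was derived from the log2 fold change and its F statistic. DESeq2 1.42.0, other scalings, filters, a replicate block and leaving out each library were the alternatives. The steps were tested on simulated counts. The replicates of a group differed by more than sampling noise (chi-square per gene 240.8 in WT and 150.9 in Qa-2-). A floor of 3 counts was 0.0747 to 0.0858 CPM, and it and the intervals cover counting error only. A gene had the pattern of Afp when its CPM in Qa-2- replicate 1 was at least 2-fold that of every other library, with at least 10 counts in the highest library. Likeness used log2 CPM with a prior count of 2. Motifs were searched on both strands in the 250 bases before each RefSeq start.

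Members are all given. Of the other lists, the genes with the largest counts and the largest excess in Qa-2- replicate 1 were the ones to be named, and not all of them are printed. Genes compared with Rbp4, and Cps1, Adipoq, Gata6, Stra6, Serpina1b and the hepatocyte genes at 0, were in part chosen after their values were seen. Protein sequences and the other experiments of the study were not analysed here.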

Additional observations from a re-analysis of the deposited data

How the results depend on the processing

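The number of listed genes called between the genotypes was 0 by edgeR and 1 by DESeq2 (Fga, log2 fold change 2.98), 0 under the other scalings and filters, and 0 to 1 when single libraries were left out, where Rbp4 was called without WT replicate 2 among 45 genes called in all. With the replicate block 2 of all genes and 0 listed genes were called and the median of the listed genes was 0.85, and the same-numbered libraries deviated in opposite ways (correlation -0.37), so the numbers do not pair the mice. The crossed pairing as a block, added after the data were seen, called 0 genes, with a median of 0.86. The median of 1.08 was 1.75 without a filter, where 30 listed genes were tested (61 of all genes called, 14 higher in Qa-2- and 47 in WT), and ran from -0.14 to 1.02 with single libraries left out. Each fit that leaves out a library assumes that the lone sample varies like the other group.

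The direction turned when a library was left out for 6 genes, with ranges of -0.53 to 4.10 for Alb, -0.24 to 3.82 for Apoa4, -0.67 to 0.61 for Trf, -0.052 to 0.90 for Pdzk1, -0.82 to 0.072 for Dab2 and -0.24 to 0.053 for Entpd2. In 47 of 56 such fits of single genes the direction and call stayed, as in 111 of 112 under the other alternatives. The number of genes with the pattern of Afp was 17 under 4 scalings, 15 at 4-fold or at 50 counts, 19 at 1.5-fold (with Apoc1 and Pdzk1), and 17 to 18 with each of the other libraries left out, an alternative added later. It cannot be given without Qa-2- replicate 1. The cause of these shifts was not tested. There were 2 mice per group, and 9 of the 17 genes were under 1 CPM in 3 or 4 libraries.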
